A study of Mus musculus with 4 samples.

Results

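Expression of the genes that hold cyclic AMP high in the mouse oocyte was followed from receptor to kinase in oocytes exposed to hydrostatic pressure. The set holds 8 of the 27670 gene, clone and transcript names on the array, chosen by name: Gpr3, Gnas, Adcy3, Pde3a, Prkaca, Prkacb, Prkar1a and Prkar2a. Every probe that the array assigns to them was taken, which gave 22 of 41174 probes. The treated samples were 4 pools of 50 mouse oocytes kept at 20 MPa for 60 minutes at 37 °C, and the controls were 4 pools of 50 oocytes handled alike but not pressurised. A treated pool in red dye and its control pool in green dye shared an array, so the comparison is made within each of 4 arrays. By the labels the dyes were never exchanged, so an effect of dye and an effect of pressure cannot be told apart. RNA (240 pg per pool) was amplified in 2 rounds before labelling. The labels give neither the meiotic stage of the oocytes nor the strain or age of the mice, and they do not say whether the pools came from separate animals.

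The prophase arrest of the mammalian oocyte is kept by cyclic AMP that the oocyte makes itself. The receptor Gpr3 is active without a known added ligand and signals through the stimulatory G protein alpha subunit, encoded by Gnas, to adenylyl cyclase 3 (Adcy3). The phosphodiesterase Pde3a degrades the cyclic AMP, and is itself held back by cyclic GMP that arrives from the surrounding follicle cells through gap junctions. Cyclic AMP binds the regulatory subunits of protein kinase A (Prkar1a, Prkar2a) and frees the catalytic subunits (Prkaca, Prkacb), and the kinase then keeps cyclin-dependent kinase 1 inactive through Wee2 and Cdc25b.

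Prkar1a, the type I regulatory subunit of protein kinase A, was the only gene of the set measured in all 8 pools. Gpr3 and 1 of the 4 Prkar2a probes were measured in 4 pools each, of which 3 were control pools. Gnas, Adcy3 and Prkaca gave no signal well above background in any pool, and Pde3a and Prkacb gave one only in single pools. No probe of the set, and none of the 8124 probes tested, differed between treated and control oocytes by limma after Benjamini-Hochberg adjustment.

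The probes that carry these readings are shown first, since a signal on this array depends on where its 60-base probe sits on the transcript. Coordinates are those of the array's annotation (mouse build mm7), sequences run 5′ to 3′, and no annotation of that build was used to place them in exons or untranslated regions. The 3 probes detected on enough arrays to be tested are given by their last 30 bases (bases 31 to 60). A polyadenylation hexamer, AATAAA or ATTAAA, is in capitals where one occurs. The Gpr3 probe lies at chr4:132588374-132588433 on the minus strand, the Prkar1a probe at chr11:109778248-109778307 and the Prkar2a probe at chr9:108458345-108458404, both on the plus strand.
Gpr3 A_51_P451159: tatctctatatatgtggacatacagagaag
Prkar1a A_51_P294095: cataaaatgcatttcatgtgtatatacccc
Prkar2a A_51_P409893: tccttttctatggtattgctttATTAAAta
The Prkar2a probe was the only one of the 22 to hold either hexamer on its own strand, starting at base 53. Over the array 7.49% of probes hold one. Of these, 26.4% were measured on enough arrays to be tested, against 19.2% of the probes without one.

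The probes that stayed at background include those that cross from one exon to the next, which can be seen because their 60 bases span a longer stretch of genome. Whole sequences are given for these, all on the plus strand. Gnas A_52_P112188 spans chr2:174086070-174086231 and A_52_P112182 spans chr2:174086289-174087618. Prkar2a A_51_P217295 spans chr9:108455405-108456701. The Adcy3 probes, at chr12:4131113-4131172 and chr12:4131146-4131678, overlap by the 27 bases in capitals and so sample nearly the same place in the transcript.
Gnas A_52_P112188: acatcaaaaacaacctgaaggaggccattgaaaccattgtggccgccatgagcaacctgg
Gnas A_52_P112182: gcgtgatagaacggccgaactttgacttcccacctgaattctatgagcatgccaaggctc
Prkar2a A_51_P217295: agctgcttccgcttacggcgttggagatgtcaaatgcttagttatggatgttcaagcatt
Adcy3 A_51_P484671: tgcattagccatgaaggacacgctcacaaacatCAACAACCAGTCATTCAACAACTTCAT
Adcy3 A_52_P216525: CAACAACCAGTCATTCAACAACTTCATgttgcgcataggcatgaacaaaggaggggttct

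Detection is the scanner software's own call that a spot is well above its background. A probe entered the test if 1 dye had that call on 3 or more of the 4 arrays, which kept 3 of the 22 probes of the set (13.6%) against 19.7% of all probes on the array. In no pool were 15 of the 22 probes (68.2%) detected, against 65.1% of all probes. Taking every probe in every pool, 8 of 88 readings of the set were detected in treated pools and 12 of 88 in control pools, which is 9.09% and 13.6%. Over the whole array the same shares were 19.1% in treated pools and 22.02% in control pools. By the looser limit of the 95th percentile of the array's 153 negative control spots, 19 of 88 readings in treated pools (21.6%) and 30 of 88 in control pools (34.1%) lay above it, against 34.1% in treated and 37.8% in control pools over all probes. Levels are background-subtracted intensities in the scanner's linear units, in which 0 is the local background. They are compared between pools for 1 probe and not between probes.

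**Figure D1:**
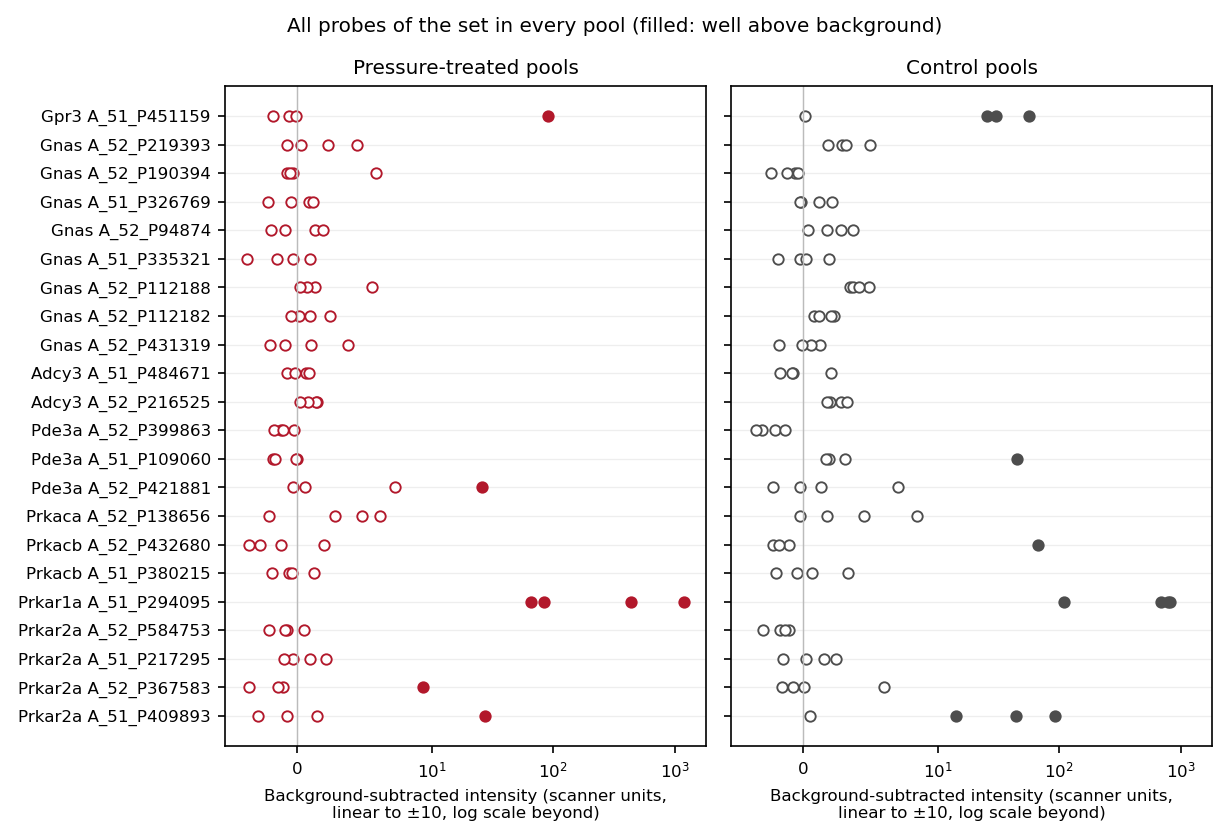
Background-subtracted intensity (horizontal axis, scanner units, linear to 10 on either side of 0 and logarithmic beyond) of each of the 22 probes in the 4 treated pools (left) and the 4 control pools (right). Filled points were well above background. Most points lie at 0, and the Prkar1a probe alone is filled in all 8 pools.

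The arrays did not behave alike. At the 99th percentile of net signal, the treated pool was 2.56 times as bright as the control pool on replicate 1, and 0.393, 0.247 and 0.304 times as bright on replicates 2, 3 and 4. The log2 ratios of all probes on replicate 1 correlated with those on the other arrays at r = -0.17, -0.15 and -0.19, and the other arrays correlated with each other at r = 0.086 to 0.29. No correlation passed below -0.3, and a mean that moved by over 1.5 times without replicate 1 is also given without it. Replicate 1 was kept as labelled, and whether its labels are reversed was not tested. Where the sign of replicate 1 is said to be turned, its log2 ratios were given the opposite sign. Oocyte markers were present in all pools: 10 of 14 marker genes on the array had a tested probe. The summed level over the 17 probes of the list ranged from 32116 to 217098 in treated pools and from 66660 to 197709 in control pools. Of the oocyte markers without a tested probe, Nlrp5 was detected in no pool, Zp2 and Figla in at most 1 and Mos in at most 3. For cumulus and granulosa cells 6 of 20 marker genes had a tested probe, and the sum over their 30 probes was 576 to 2548 in treated pools and 690 to 5717 in control pools, with Amh, Foxl2, Fshr and Lhcgr detected in no pool, Tnfaip6 in 8, Cyp19a1 and Ptgs2 in 7, and Inha and Nr5a2 in 6. Of blood markers 2 of 10 genes had a tested probe (18 probes, 593 to 5582 in treated pools and 1979 to 7873 in control pools), and of oviduct, endothelium and stroma 3 of 13 (28 probes, 239.9 to 1338 in treated pools and 475 to 2037 in control pools). The part these cells may have in any value below was not tested. In pooled oocytes, fewer transcripts per oocyte and fewer oocytes that hold them cannot be told apart.

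Gpr3, the constitutively active receptor at the head of the pathway, had intensities of 90.3, -0.56, -1.72 and -0.015 in treated pools of replicates 1 to 4, against 56.5, 30.3, 0.18 and 25.4 in the control pools on the same arrays. It was thus detected in 1 treated pool, that of replicate 1, and in the 3 control pools of replicates 1, 2 and 4. The groups overlap, since the single bright treated pool exceeded every control pool. After loess, which removes each array's dye imbalance at each level of brightness, the log2 ratio of treated over control was -0.35, -0.12, -0.14 and -0.48 on the 4 arrays. On replicate 1 the ratio is below 0 although the treated pool was the brighter. That sign depends on loess: with median centring the ratios were 0.34, -0.12, -0.12 and -0.59, and in the authors' value table that of replicate 3 was 0. Of all tested probes, 82.5% were brighter in the treated pool on replicate 1, against 9.68% to 16.2% on the other arrays. The mean of the 4 ratios was -0.27 ± 0.16 (SE, n = 4; adjusted p = 0.93 by limma). The probe entered the test through its control pools alone, and only replicate 1 had both pools detected, so this mean and its sign support no difference. A value below 0 on all 4 arrays was shared by 9.22% of the 8068 tested probes with a ratio on every array, and a value above 0 on all 4 by 3.04%, and nothing is read from the sign of Gpr3. Leaving out each array in turn, the mean ranged from -0.32 to -0.20.

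The size of the Gpr3 ratio depends on the background step. With an offset of 10 in place of 50 the mean was -0.62, and with no background subtraction it was -0.42. The median corrected spot stood at 7.32 on the log2 scale on replicate 2, against 5.84 to 5.88 on the other arrays. With the scanner's processed signals the ratios were -0.78, -3.39, -0.032 and -3.58, the mean was -1.95, and no adjusted p under any setting was below 0.66. The values of replicates 2 and 4 set a detected control pool against a treated pool at background, so they have no interpretable size.

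Gnas, which encodes the stimulatory G protein alpha subunit and, from other promoters of the same locus, further transcripts, was read by 8 probes. None was detected in any of 8 pools. Their intensities ranged from -3.66 to 5.86 in treated pools and from -2.31 to 4.97 in control pools. By the array's annotation A_52_P112188 and A_52_P190394 carry the label of transcript variant 1, though A_52_P190394 lies upstream at chr2:174044375-174044434. A_52_P112182 is for a partial Gs alpha clone, and A_51_P326769, A_52_P219393, A_52_P431319, A_51_P335321 and A_52_P94874 are for other transcripts of the locus. The exon-crossing A_52_P112188 read 1.33, 0.74, 0.27 and 5.61 in treated pools, against 4.92, 3.49, 3.76 and 4.19 in control pools. It was the only one of the 15 probes detected in no pool for which all 4 control pools exceeded the 95th percentile of the negative controls on their array (2.13, 2.89, 2.44 and 2.28). In treated pools 2 readings exceeded that limit, and the groups overlap through the treated pool of replicate 4. Its log2 ratios lay between -0.053 and 0.066 on the 4 arrays, and no test was made on it. A_52_P190394 did not exceed that limit in any control pool and did so in 1 treated pool.

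Adcy3, the cyclase that makes cyclic AMP in the rodent oocyte, was not detected well above background on either probe in any pool. A_51_P484671 read from -0.68 to 0.90 in treated pools and from -1.65 to 2.10 in control pools. A_52_P216525 read from 0.21 to 1.48 in treated pools and from 1.79 to 3.27 in control pools. It exceeded the 95th percentile of the negative controls in 1 treated pool and 1 control pool, and A_51_P484671 in none. These are readings near the negative controls, and they leave a difference in Adcy3 not detectable at this signal.

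Pde3a, the enzyme that degrades the oocyte's cyclic AMP when meiosis resumes, was detected in 2 single pools, on different probes. A_51_P109060 (chr6:141551417-141551476) read 0.041, -1.76, -0.013 and -1.62 in treated pools, against 1.96, 3.12, 1.71 and 45.1 in control pools, so only the control pool of replicate 4 was bright. A_52_P421881 (chr6:141553813-141553872) read 25.8, 7.28, 0.65 and -0.28 in treated pools, against -0.17, 7.07, -2.17 and 1.37 in control pools, and there the treated pool of replicate 1 was bright. The bright pool was a control pool for one probe and a treated pool for the other. After normalization the mean log2 value of A_51_P109060 was 6.16 in treated and 6.36 in control pools (detected in 1 of 4 control pools). That of A_52_P421881 was 6.34 in treated and 6.25 in control pools (detected in 1 of 4 treated pools). Most readings in these means were at background, so they give no fold difference and no bound on one. Neither probe was tested. The third probe, A_52_P399863, was detected in no pool.

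The catalytic subunits of protein kinase A, which phosphorylate the targets, were hardly seen. The Prkaca probe was undetected in every pool, with intensities of 6.19, 2.86, -2.01 and 4.88 in treated pools against -0.23, 4.53, 1.79 and 8.45 in control pools, and the groups overlap. Of 2 Prkacb probes, A_51_P380215 was undetected throughout. A_52_P432680 read -1.15, 2.05, -2.75 and -3.52 in treated pools, against -1.02, 66.4, -2.17 and -1.78 in control pools. Only the control pool of replicate 2 stood out. The mean log2 value of this probe after normalization was 6.25 in treated and 6.32 in control pools, which gives no bound either.

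Prkar1a, the regulatory subunit that binds cyclic AMP in type I protein kinase A, was the bright member. Its intensities in treated pools were 1195, 65.8, 84.2 and 435 on replicates 1 to 4, against 109.9, 779, 693 and 819.6 in control pools. The treated pool was the brighter on replicate 1 by 10.9-fold, while on replicates 2, 3 and 4 it held 0.0845, 0.121 and 0.531 of the control pool's signal. The bright end of the array as a whole was split the same way, at 2.56 on replicate 1 and 0.247 to 0.393 on the others. After loess the log2 ratios were 1.86, -1.28, -0.80 and 0.56, 2 on each side of 0. The ratio exceeded that of 98.8%, 1.69%, 12.2% and 79.8% of tested probes on replicates 1, 2, 3 and 4. The mean was 0.084 ± 0.55 (SE, n = 4; 95% interval -1.28 to 1.45), with a limma p of 0.88 and an adjusted p of 0.99. Its 4 ratios had an SD of 1.42, larger than that of 95.9% of tested probes, whose median SD was 0.516. Without replicate 1 the mean was -0.51, without replicate 2 it was 0.54, and with the sign of replicate 1 turned it was -0.85.

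**Figure D2:**
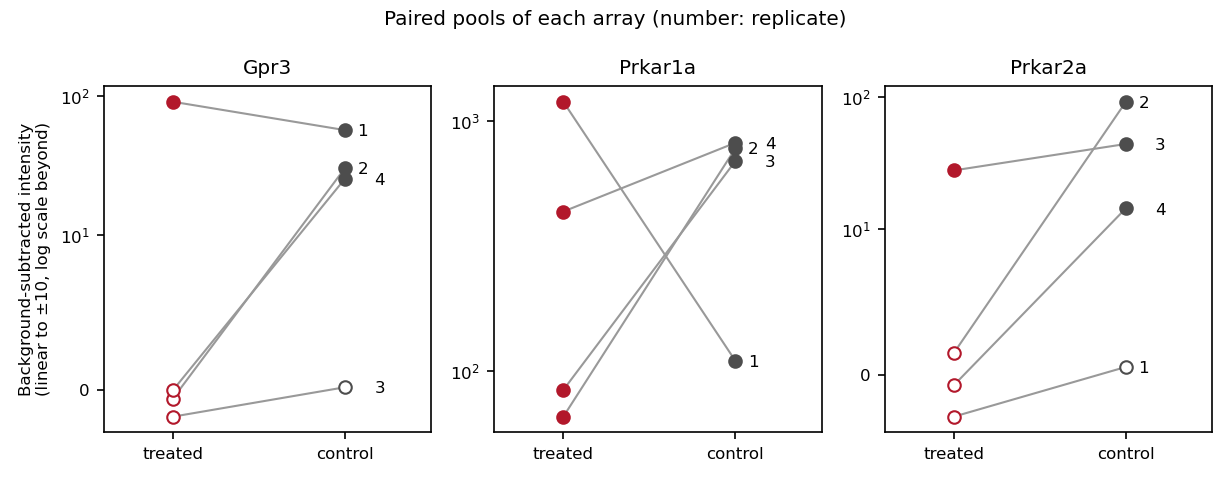
Background-subtracted intensity (vertical axis, linear to 10 on either side of 0 and logarithmic beyond) of the 3 tested probes, with the treated pool (left) joined to the control pool (right) of the same array. Filled points were well above background, and the number gives the replicate. For Prkar1a the line of replicate 1 crosses the other lines, and for Gpr3 and Prkar2a most treated points lie at 0.

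Prkar2a, the regulatory subunit of type II protein kinase A that A-kinase anchoring proteins hold in place, was read by 4 probes. The 3′-most, A_51_P409893, had intensities of -2.85, 1.49, 27.6 and -0.71 in treated pools, against 0.55, 91.6, 43.8 and 14.2 in control pools. It was detected in the treated pool of replicate 3 and in the control pools of replicates 2, 3 and 4, and the groups overlap. In each of the 4 arrays the control pool had the higher intensity, but the log2 ratios after loess were -0.097, -0.25, 0.49 and -0.30. The mean was -0.041 ± 0.20 (SE, n = 4; adjusted p = 0.98 by limma), and -0.022 without replicate 1. This probe too entered the test through its control pools alone, and only replicate 3 had both pools detected. With the processed signals the ratios were -0.041, -4.43, 1.58 and -2.81. Of the other 3 probes only A_52_P367583 was detected, in the treated pool of replicate 1 at 9.39 against 6.01 in the control pool of that array.

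**Figure D3:**
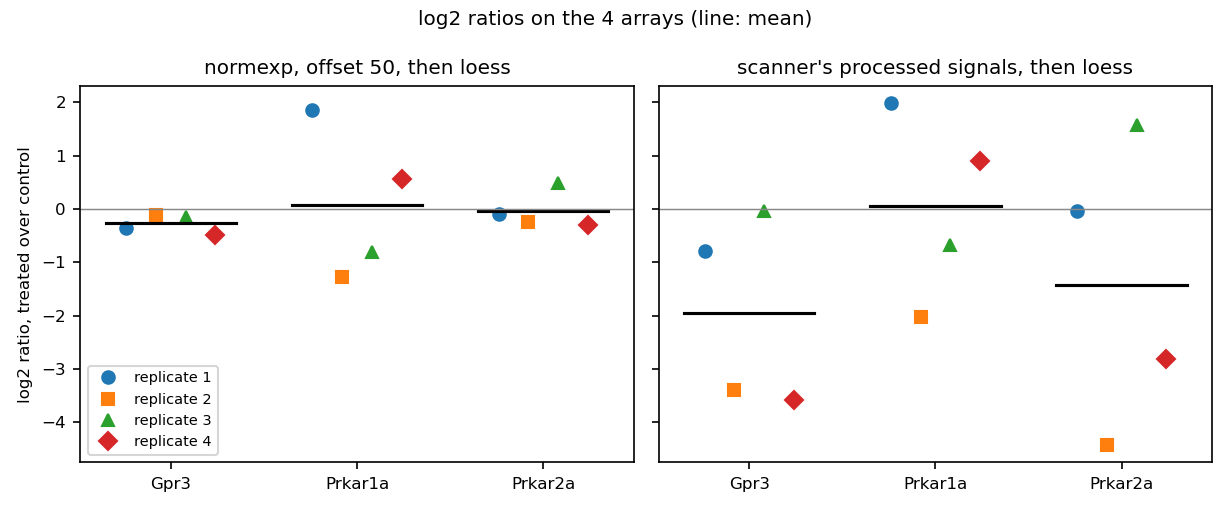
log2 ratio of treated over control (vertical axis) for the 3 tested probes on the 4 arrays, from normexp-corrected signals with an offset of 50 (left) and from the scanner's processed signals (right), both after loess. Lines are means. Each Prkar1a point keeps its side of 0 between the panels, while Gpr3 on replicates 2 and 4 and Prkar2a on replicates 2 and 4 move from within 0.5 of 0 to below -2.8.

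The 3 tested probes, of which 2 were admitted by their control pools alone, had a median log2 ratio of -0.041, against -0.016 for all 8124 tested probes. By array the median of the 3 was -0.097, -0.25, -0.14 and -0.30. The set had 0 of 3 probes called at an adjusted p under 0.05, and so had the whole array (0% of 8124), where the lowest adjusted p was 0.93. At an unadjusted p under 0.05 limma passed 328 probes (4.04%), of which 63 were higher and 265 lower in treated pools, and none was in the set. Detection in 1 dye sufficed for entry, and over the array 19.1% of treated and 22.02% of control readings were detected. The part of this in the split was not tested, and no direction is read from it.

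The order of probes along a transcript went with their detection. The array has 5231 transcripts with 2 or more probes of known position. Their 3′-most probe was tested in 35.2%, against 15.9% for their 5′-most probe. In 2385 transcripts the 3′-most probe was detected in more pools, in 764 the 5′-most, and in 2082 the numbers were equal. Within the set, 4 genes had such a transcript. For Prkar2a the 3′-most probe was detected in 4 pools and the 5′-most in none, for Prkacb in 1 and in none, and for Gnas and Adcy3 both were in none. The part of probe position in the readings of the set was not tested further.

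**Figure D4:**
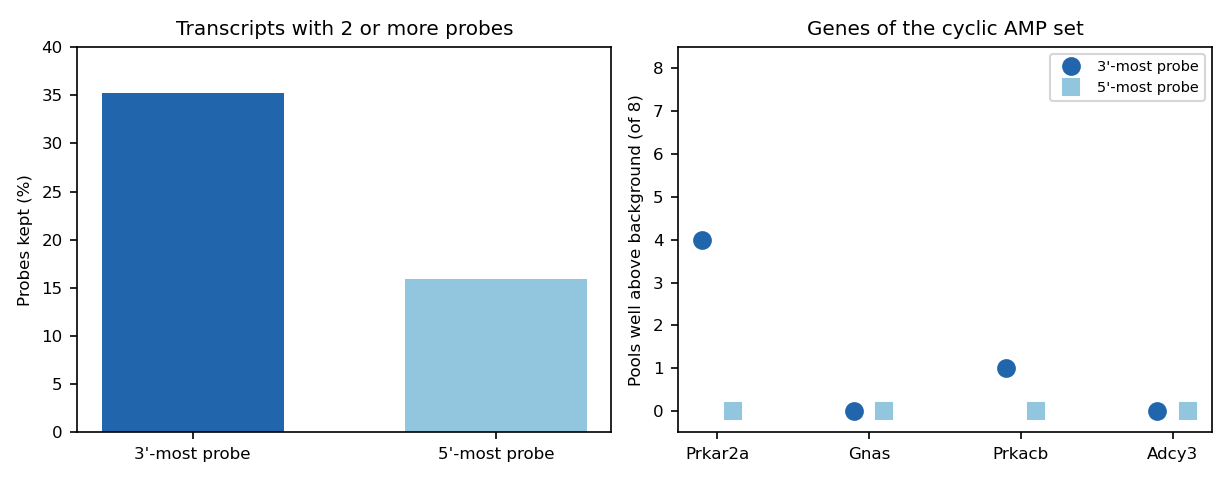
Left, share of transcripts (percent) whose 3′-most or 5′-most probe entered the test, 35.2% and 15.9%. Right, number of pools of 8 in which the 3′-most (circle) and 5′-most (square) probe was detected, for the 4 genes of the set with such probes.

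The rest of the pathway was read from lists of 106 genes, 105 of them on the array with 228 probes. Of these, 53 probes of 42 genes were tested (23.2%), none was called in either direction, 27 had a mean above 0 and 26 below, and the median was 0.020. Of the 53 probes, 4 were below 0 on all 4 arrays and 2 above 0 on all 4. Over all tested probes with a ratio on every array these shares were 9.22% and 3.04%. At an unadjusted p under 0.05 limma passed 1 of the 53, against 4.04% of all 8124 tested probes. This was Prkar2b, the other type II regulatory subunit. Its intensities were 2398, 544, 421 and 391 in treated pools, against 1885, 3388, 1930.1 and 2212 in control pools, and it was detected in all 8. The log2 ratio was below 0 on each array, at -0.94, -1.23, -0.24 and -0.88, with a mean of -0.82 ± 0.22 (SE, n = 4). By limma its p was 0.011 and its adjusted p 0.93. Over the alternative settings tried the mean stayed between -1.63 and -0.35 and the adjusted p stayed at or above 0.45. Beside it, Pkig, an inhibitor of the catalytic subunit, averaged -0.34 ± 0.22 (SE, n = 4), and 3 of 6 genes in that list were tested.

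Among receptors and G proteins 8 of 25 genes were tested, with 5 probes above 0 and 6 below. Gnai3, an inhibitory alpha subunit that opposes cyclase, was detected in all 8 pools and had a mean of -0.40 ± 0.16 (SE, n = 4), below 0 on 4 arrays. Rgs2, which shortens G protein signals, was at 0.32 ± 0.17, above 0 on 4 arrays, but it turned negative with other scalings, to -0.49 with median centring. Nothing is read from these signs, which 9.22% (below) and 3.04% (above) of tested probes shared. Gpr12, a receptor related to Gpr3, and Gnai2 were not tested, with at most 1 and 4 pools detected. Of the cyclases 2 of 9 genes were tested: Adcy6 at 0.30 ± 0.30, which is 0.63 without replicate 1, and Adcy9 at -0.048 ± 0.16, detected only in 3 control pools and at -0.11 without replicate 1 (SE, n = 4 each).

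Of the phosphodiesterases 4 of 17 genes were tested, 5 probes above 0 and 1 below. Pde4a was at 0.15 ± 0.17 and Pde3b, the paralog of Pde3a, at 0.15 ± 0.22 (SE, n = 4 each), or 0.25 and 0.33 without replicate 1. Both were detected in all 8 pools, at intensities of 10.1 to 22.6 in treated and 10.9 to 25.7 in control pools for Pde4a, and 9.12 to 38.7 in treated and 9.12 to 39.6 in control pools for Pde3b. Pde4d was not tested. Of the anchoring proteins, which tie the kinase to places in the cell, 7 of 14 genes on the array were tested: Akap11 at -0.41 ± 0.26, Akap10 at 0.15 ± 0.16 with its other tested probe of opposite sign, and Akap1 at -0.13 ± 0.17. Akap11 (detected in 2 treated and 4 control pools) and Akap1 (2 and 3) entered the test through control pools alone. Akap10 (3 and 2) entered through treated pools alone. On replicate 4 Akap11 read -1.29 in the treated pool against 161.6 in the control pool. That ratio has no interpretable size, and nothing is read from the signs of these 3 means.

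In the list of cyclic GMP supply and gap junctions, through which the follicle cells act on Pde3a, 6 of 14 genes were tested. Gja4, the connexin that joins the oocyte to its follicle cells, had ratios of -1.57, 1.44, 2.46 and 2.75, with a mean of 1.27 ± 0.75 (SE, n = 4), an adjusted p of 0.93 and a mean of 2.21 without replicate 1. The mean was 0.44 with median centring, 0.30 without normalization and 0.51 with processed signals. Its background-subtracted intensity was 14840, 23406, 17427 and 40229 in treated pools against 15372, 19969, 15641 and 22169 in control pools, and the groups overlap. Prkg1, a cyclic GMP-dependent kinase, was at 0.47 ± 0.29. Downstream, 12 of 20 genes of kinase targets and of the entry into division were tested, with 7 probes above 0 and 10 below. Wee2, the kinase that keeps cyclin-dependent kinase 1 inactive in oocytes, was at -0.058 ± 0.20 and Cdc25b, the phosphatase that activates it, at -0.072 ± 0.22. Cdc25a was at 0.40 ± 0.22 and Crebbp, a coactivator at cyclic AMP-responsive genes, at -0.61 ± 0.42 (SE, n = 4 each). Without replicate 1 Wee2 was at -0.10 and Crebbp at -0.92, and without replicate 4 Crebbp was at -0.11. Crebbp, detected in 2 treated and 3 control pools, entered the test through its control pools alone. On replicate 4 it read 2.87 in the treated pool against 427 in the control pool, so its mean has no interpretable size. Cdk1 was not tested. As reported, none of these had an adjusted p below 0.93 by limma. With the sign of replicate 1 turned, Gja4 had a mean of 2.05 and an adjusted p of 0.0595 by limma. Without replicate 1 its adjusted p was 0.19 by limma. Each was the lowest value on the array in its setting, and neither was below 0.05.

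**Figure D5:**
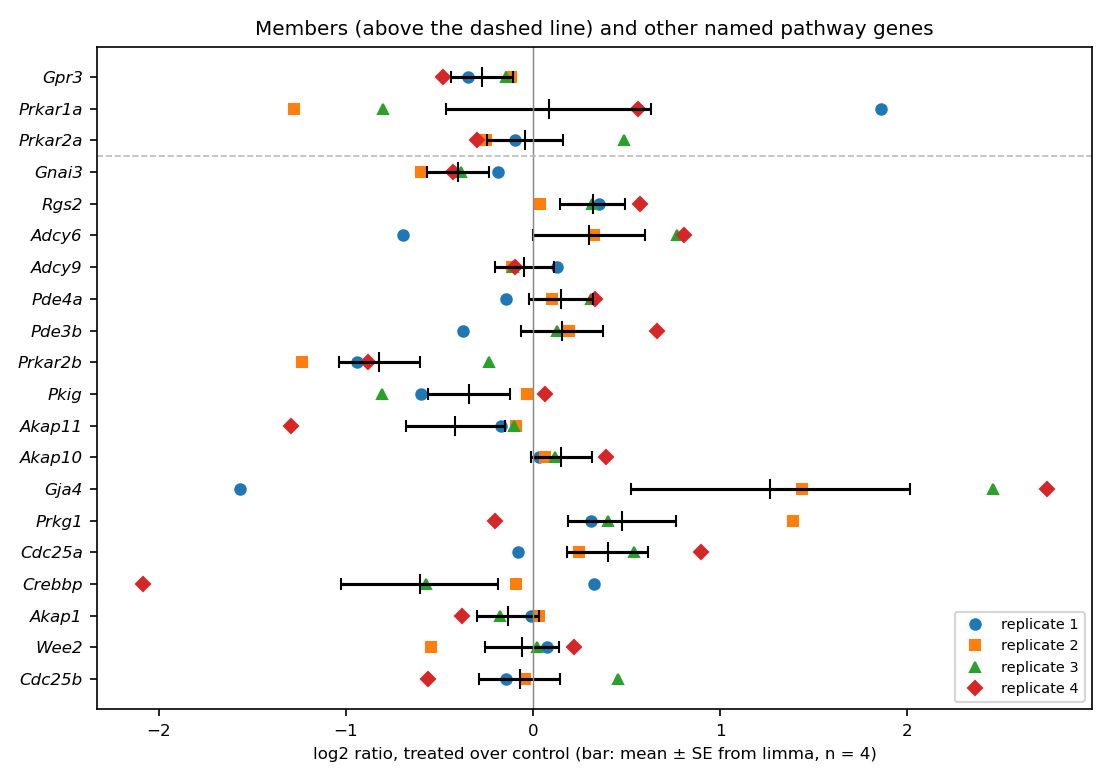
log2 ratio of treated over control (horizontal axis) for the 3 tested probes of the set, above the dashed line, and 17 other pathway genes below it. Symbols are the 4 arrays, and black bars the mean ± SE from limma (n = 4). For Prkar1a and Gja4 the arrays lie on both sides of 0, and Prkar2b lies below 0 on every array.

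Markers of the oocyte and of other cells that had the lowest p in their list were likewise not called. They were Gdf9 and Nobox for the oocyte (0.48 ± 0.28 and -0.29 ± 0.28), Hsd17b1 and Nr5a2 for cumulus and granulosa cells (-0.65 ± 0.43 and -0.22 ± 0.20), Srgn and Hba-a1 for blood (-0.52 ± 0.16 and 0.28 ± 0.26), and Acta2 and Krt8 for oviduct, endothelium and stroma (0.83 ± 0.43 and 0.16 ± 0.24; SE, n = 4 each). Without replicate 1 the means were -0.12 for Hsd17b1, -0.079 for Nr5a2, 0.54 for Hba-a1, 1.34 for Acta2 and 0.096 for Krt8. Hsd17b1 was detected only in 3 control pools, through which it entered the test, and its mean rests on replicate 1, where the ratio was -2.26. Krt8, detected in 2 treated and 3 control pools, also entered through its control pools alone.

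The genes whose 8 channel values most resembled the tested members were found by the root-mean-square difference of centred log2 values. For Gpr3 these were Dhrs2 (0.11) and Smg6 (0.14), against a median of 0.58 over tested probes. For Prkar1a they were Chek1 (0.29) and Atf1 (0.34), against 0.79, and for Prkar2a Rbbp4 (0.15) and Zfp281 (0.18), against 0.61. These values share arrays, dyes and amplification, and probes at background resemble each other by that alone.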

How the data were processed

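RNA was compared on 4 two-colour 44k Agilent arrays. Each deposited scanner file holds the intensity of every spot (mean signal, local background, background-subtracted and processed signal). The submitters' processing notes name the software, Agilent Feature Extraction, in version 9.5.1.1. The deposited value table and the log ratio column are on a log10 scale, per the file headers. From these, log2 ratios were computed. Signals were corrected with normexp (offset 50), loess was fitted within each array with control spots at weight 0, flagged spots were left out, and limma 3.58.1 (R 4.3.3) tested the 4 log2 ratios of each of 8124 probes against 0 with Benjamini-Hochberg adjustment. The procedure was also run on simulated ratios with planted differences larger than any mean of the set. That run does not bear on smaller differences or on probes with a pool at background. All 4 arrays lie on 1 slide read in 1 scan, so no slide block was fitted. P-values measure the spread between these arrays, which limits the precision. Genes named are the 8 members, the 2 with the lowest p of each list, and fixed pathway genes. Members and lists were chosen with earlier results of these data known. Alternatives tried are in the closing part.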

Additional observations from a re-analysis of the deposited data

Results flagged for a closer look

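Of 42 groups of 4 values examined, 8 had a single value far from the other 3. The limit used is passed by about 1 in 20 groups of normally distributed values, but these groups were selected. Intensities were taken only for probes of the set detected in at least 1 pool, and most other genes were picked by lowest p. Where a single pool was detected, the flag follows from that selection, and the count of 8 is not compared with the 1 in 20. Gpr3 read 90.3 in the treated pool of replicate 1, against -1.72 to -0.015 in the other treated pools. Prkar2a A_51_P409893 read 27.6 in the treated pool of replicate 3, against -2.85 to 1.49 in the other treated pools. Pde3a A_51_P109060 read 45.1 in the control pool of replicate 4, against 1.71 to 3.12 in the other control pools, and Prkacb A_52_P432680 read 66.4 in that of replicate 2, against -2.17 to -1.02. Among the other genes the log2 ratio of Adcy9 was 0.13 on replicate 1 (others -0.11 to -0.096), that of Akap11 was -1.29 on replicate 4 (others -0.17 to -0.090), that of Nobox was -1.22 on replicate 3 (others -0.066 to 0.093) and that of Hsd17b1 was -2.26 on replicate 1 (others -0.19 to -0.073).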

How the results depend on the processing

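No setting gave a called probe in the set or on the array: limma called 0 of 8124 as reported and 0 under each alternative. The lowest adjusted p by limma was 0.93 as reported and 0.0595 with the sign of replicate 1 turned, where Gja4 had that value. At an unadjusted p under 0.05 limma passed 328 of 8124 probes as reported and 1047 of 8124 with that sign turned. It passed 70 of 8068 with limma's trend and robust options, and 1054 of 41174 with no filter. Every count of called probes was therefore the same. The test of within-array ratios is already paired, and a further replicate block could not be fitted. The slide as a block could not be fitted. The median of the tested members was -0.26 with no background subtraction, -1.43 with processed signals, -0.15 with an offset of 10, -0.27 with median centring, -0.42 without normalization, 0.084 when both dyes had to be detected on all 4 arrays (only Prkar1a left), -0.19 with array weights and -1.44 in the authors' value table. Leaving out one array at a time it ran from -0.25 to 0.030. The median of all tested probes moved to -0.32 with median centring, -0.47 without normalization, -0.10 with processed signals and -0.14 in the authors' table, so signs there are relative to that shift. These signs turned: with no background subtraction, Prkar1a -0.051; with processed signals, Rgs2 -0.36, Gdf9 -0.21, Krt8 -0.11 and Wee2 0.042; with median centring, Prkar1a -0.51, Rgs2 -0.49, Adcy6 -0.061, Gdf9 -0.37 and Krt8 -0.049; without normalization, Prkar1a -0.66, Rgs2 -0.63, Adcy6 -0.21, Pde4a -0.064, Pde3b -0.13, Akap10 -0.042, Cdc25a -0.072, Gdf9 -0.52, Hba-a1 -0.096 and Krt8 -0.20; with array weights, Prkar1a -0.63 and Cdc25b 0.018; in the authors' table, Rgs2 -0.20, Gdf9 -0.044 and Krt8 -0.21; with replicate 1 turned, Prkar1a -0.85, Prkar2a 0.0074, Hsd17b1 0.48, Nr5a2 0.10 and Krt8 -0.013. Leaving out one array, means ranged from -0.51 to 0.54 for Prkar1a, -0.22 to 0.046 for Prkar2a, -0.15 to 0.11 for Wee2, -0.42 to 0.019 for Nobox, -0.044 to 0.35 for Krt8, -0.016 to 0.33 for Pde3b and -0.25 to 0.091 for Cdc25b. The cause of these turns was not tested. Depth is unknown for arrays, and 19 of 22 probes of the set had too little signal over background to be tested. Of the 3 tested, only Prkar1a was detected in both pools on all 4 arrays.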
